A study of Canis lupus familiaris with 25 samples.

Results

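The genes described here are 48 genes of T cells, natural killer (NK) cells and B cells, chosen by name from the known biology of lymphocytes. Of these, 46 were among the 24532 genes of the deposited count table, and LAT and GZMB were not among its gene names. They form 8 classes. The T cell genes are the 4 chains of the T cell receptor complex (CD3D, CD3E, CD3G, CD247), the 3 coreceptor chains (CD4, CD8A, CD8B), the 2 kinases LCK and ZAP70, 9 surface receptors (CD2, CD5, CD6, CD7, CD27, CD28, ICOS, SLAMF1, SLAMF6), and FOXP3 with 4 cytokine receptor chains (IL2RA, IL2RB, IL2RG, IL7R). The other classes are 8 NK and cytotoxic genes (GZMA, GZMK, PRF1, NKG7, KLRB1, KLRD1, EOMES, TBX21), 10 B cell genes (MS4A1, CD79A, CD79B, PAX5, CD22, BLK, FCRLA, POU2AF1, TNFRSF13C, VPREB3), and 5 genes shared by lymphocytes or by all leukocytes (IKZF1, IKZF3, PTPRC, CORO1A, RAC2).

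They were measured by QuantSeq 3′ sequencing, which reads a short fragment at the 3′ end of each polyadenylated transcript, in formalin-fixed, paraffin-embedded tumors of pet dogs. The groups were 10 hepatoid gland adenomas (HGA), benign tumors of the perianal glands, 11 primary apocrine gland anal sac adenocarcinomas (AGASAC), malignant tumors that spread early to the regional nodes, and 4 sublumbar lymph node metastases from the dogs of AGASAC 1 to 4. The tumors were untreated archive material, the HGA from dogs of 8 to 14 years (4 intact and 1 neutered males, 2 intact and 3 neutered females), the primary AGASAC from dogs of 8 to 12.5 years (6 neutered males, 2 intact and 3 neutered females) and the metastases from dogs of 8 to 10 years (2 neutered males, 1 intact and 1 neutered female). Intact males occurred only among HGA, while the other classes of sex and neutering occurred in both HGA and primary AGASAC, and the part of sex and neutering in the results was not tested. Tissue next to the tumor had been removed and whole cross sections were extracted, and whether tissue from outside the tumor remained was not tested.

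A T cell recognizes antigen through a receptor whose signal is passed on by the CD3 chains and CD247, with CD4 or CD8 holding the antigen-presenting molecule and LCK and ZAP70 as the first kinases. B cells signal through CD79A and CD79B at their own antigen receptor, and cytotoxic T cells and NK cells kill through granzymes and perforin. In tumors the summed RNA of such genes is commonly read as a measure of lymphocyte infiltration. In bulk tissue, however, fewer lymphocytes and less RNA per lymphocyte cannot be told apart.

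Each sample held between 1562347 and 6389555 counts on genes, and all levels given here are CPM, a gene's share of all counts on genes scaled to a fixed library total and adjusted by the trimmed mean of M values (TMM) over the 25 samples. At this depth the 3 counts that a value of 0 still allows were worth 0.543 to 1.84 CPM, and this limit covers counting error only. The counts on all 46 genes together were 70 to 845 in an HGA, 331 to 2923 in a primary AGASAC and 851 to 1401 in a metastasis, so most genes rested on few reads. A count of 10 or more was reached by 3 to 25 of the 46 genes in an HGA (median 7.5), by 10 to 32 in a primary AGASAC (median 20) and by 23 to 31 in a metastasis (median 30). The keratins matched the labels, as the squamous keratin KRT14 was at 2359 CPM or more in every HGA and at 9.18 CPM or less in every primary AGASAC, while KRT8 of glandular epithelium was at 0.452 CPM or less in HGA and at 227 CPM or more in AGASAC.

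**Figure D1:**
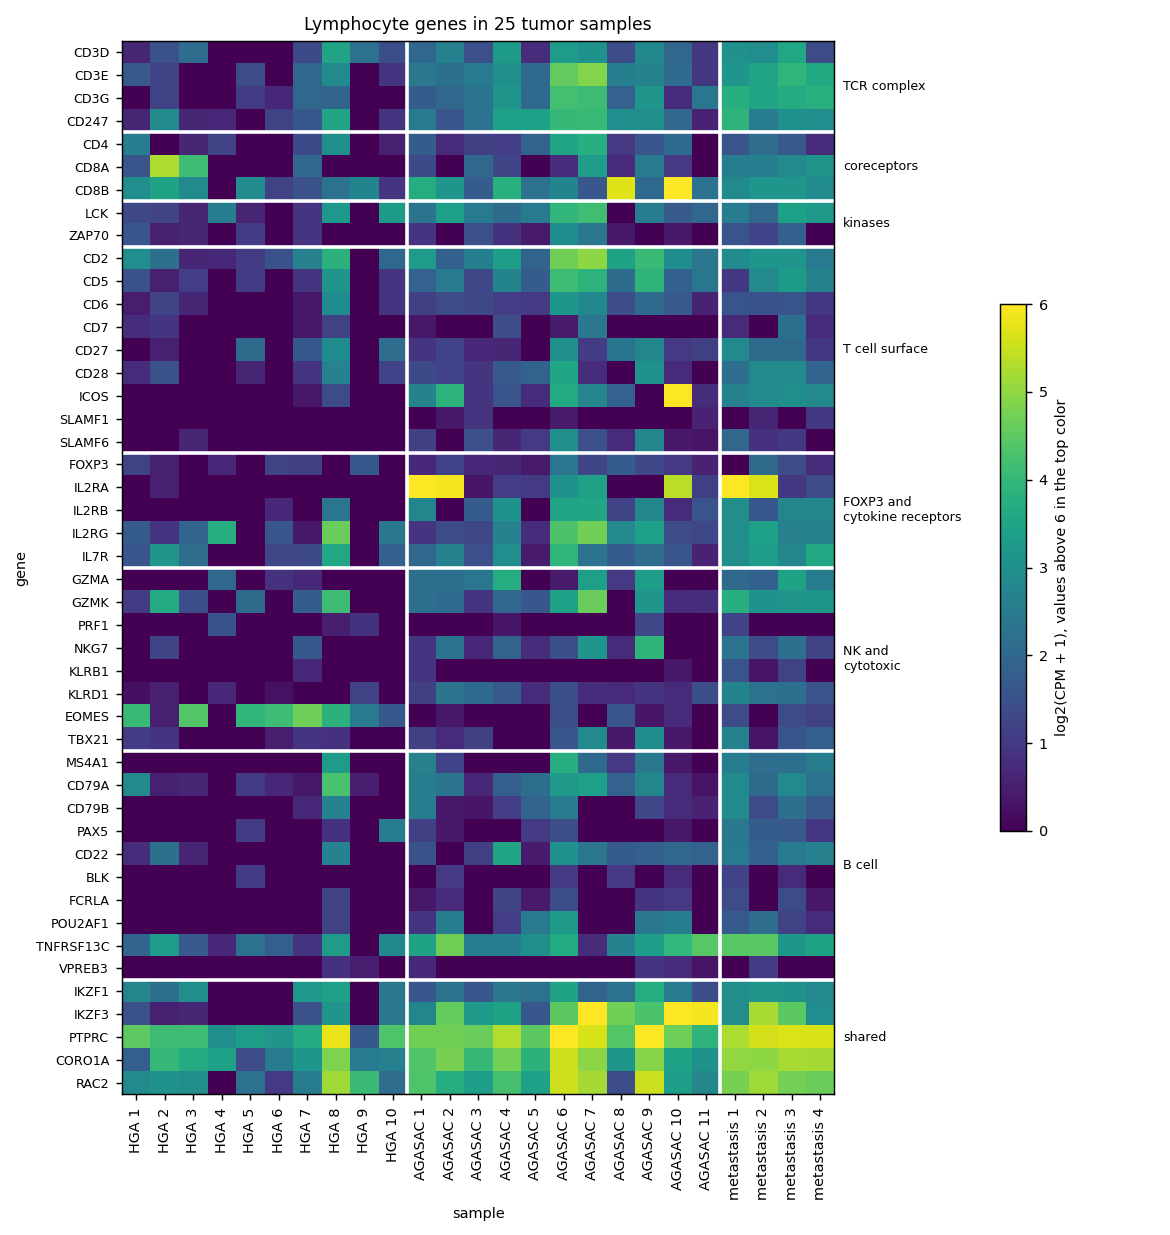
Level of the 46 lymphocyte genes found (rows, by class) in each of the 25 samples (columns, by group), as log2(CPM + 1) in color, with values above 6 in the top color. HGA 8 is the brightest HGA column, AGASAC 6 and AGASAC 7 are bright in most T cell rows, and CD8B, ICOS, IL2RA and IKZF3 are bright in few AGASAC samples each.

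Most lymphocyte genes had a lower mean level in HGA than in AGASAC. The mean CPM was higher in primary AGASAC than in HGA for 42 of 46 genes, against 53.3% of the 24332 genes with a count in these tumors, and the exceptions were CD8A, PRF1, EOMES and PAX5. The metastasis mean exceeded the HGA mean for 45 of 46 genes (EOMES was the exception), against 49.1% of 23678 genes. Under RLE scaling this number was 43 and under library size alone 44, while 42 of 46 stood under each scaling for primary AGASAC against HGA. Against all 11 primary tumors the metastasis mean was higher for 36 of 46 genes (45.6% of 23413 genes), the exceptions being CD4, CD8B, CD2, CD5, CD6, ICOS, SLAMF6, NKG7, POU2AF1 and IKZF3. The mean summed CPM of all 46 was 107 in HGA, 339 in primary AGASAC and 337 in the metastases. The medians were 88.9, 254 and 352 CPM, as AGASAC 10 alone reached 954 CPM. Without CD8B, IL2RA, ICOS, IKZF3 and EOMES the mean sums were 89.3, 204 and 275 CPM. Macrophage and plasma cell markers also had higher summed medians in primary AGASAC (331 and 71.7 CPM) than in HGA (196 and 26.4 CPM), and their part in the lymphocyte genes was not tested.

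The 23 T cell genes summed to a median of 30.3 CPM in HGA (10.2 to 130), 113 CPM in primary AGASAC (30.4 to 734) and 145 CPM in the metastases (103 to 175). Without CD8B, IL2RA and ICOS, which were very high in 1 to 5 AGASAC samples each, the median was 28.8 in HGA, 49.7 in primary AGASAC and 96.9 in the metastases. The HGA and AGASAC ranges overlapped by either sum. For the 10 B cell genes the summed CPM had a median of 5.22 in HGA (0.615 to 51.4), 24.3 in primary AGASAC (6.82 to 56.9) and 35.1 in the metastases (28.1 to 52.6). The NK and cytotoxic sum differed in direction according to a single gene. With EOMES the median was 17.9 CPM in HGA and 11.5 CPM in primary AGASAC, and without EOMES it was 2.79 and 11.5 CPM, with 23.3 CPM in the metastases.

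**Figure D2:**
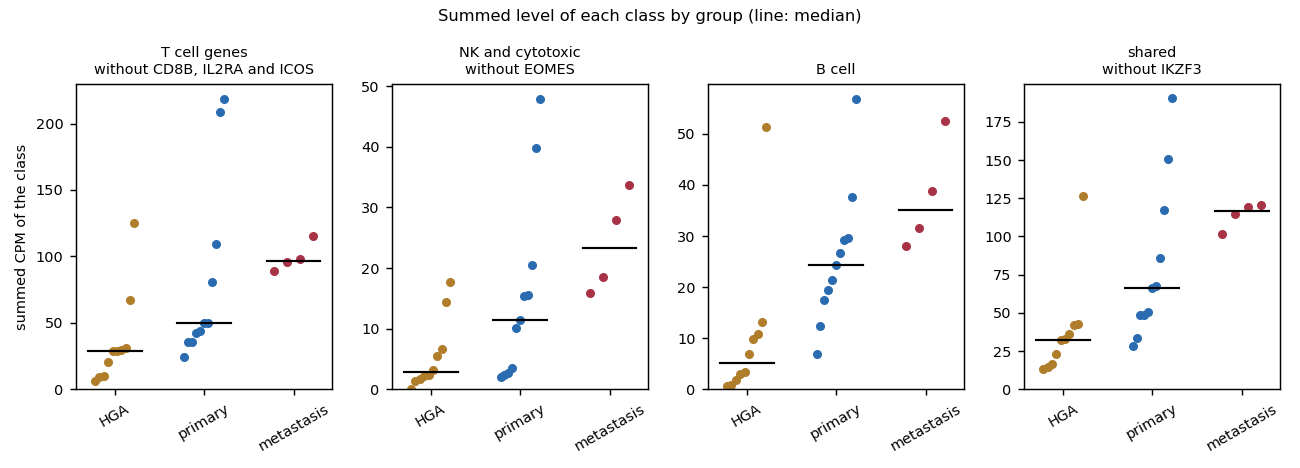
Summed CPM of each class (y axis) in every sample of the 3 groups (points), with the group median as a line, leaving out CD8B, IL2RA, ICOS, IKZF3 and EOMES. In all 4 panels the median is lowest in HGA and highest in the metastases, with overlapping ranges of HGA and primary AGASAC, and the single high HGA point in the B cell panel, at 51.4 CPM, is HGA 8.

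HGA 8 stood apart from the other HGA. It held the highest HGA value of 27 of the 46 genes, and its summed CPM of B cell genes, 51.4, compared with 13.1 in the next HGA. MS4A1, which encodes the B cell surface protein CD20, was at 9.04 CPM in HGA 8 and at 0 in the other 9 HGA. The macrophage, plasma cell and lymph node stroma markers were also at their highest HGA value in HGA 8 (summed CPM 335, 104 and 135, against group medians of 196, 26.4 and 44.4), and their part in its lymphocyte levels was not tested. Without HGA 8 the ratio of median summed CPM of B cell genes, primary AGASAC over HGA, was 7.10 in place of 4.66. Among the malignant primary tumors, AGASAC 6 was highest for 18 and AGASAC 7 for 12 of the 46 genes. AGASAC 6 also had the highest macrophage marker sum (516 CPM against a median of 331) and plasma cell marker sum (191 against 71.7).

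The T cell receptor complex had a median summed CPM of 3.63 in HGA, 16.1 in primary AGASAC and 37.2 in the metastases. CD3E, an invariant signaling chain of the receptor, was at 0 to 6.16 CPM in HGA (median 1.11), at 0.972 to 28.7 CPM in primary AGASAC (median 4.45), and at 7.79, 10.4, 14.2 and 11.5 CPM in metastases 1 to 4. All 4 metastases lay above all 10 HGA, while primary AGASAC and HGA overlapped. CD3G was at 0 to 3.04 CPM in HGA (median 0.306), at 0.653 to 17.6 CPM in primary AGASAC (median 3.86), and at 12.6, 10.4, 11.9 and 13.1 CPM in the metastases. Here too the metastases did not overlap with HGA. CD3D overlapped more, with 0 to 10.3 CPM in HGA (median 1.62), 0.694 to 8.96 CPM in primary AGASAC (median 3.01), and 7.14, 6.63, 10.9 and 1.6 CPM in the metastases.

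The coreceptors did not move together. CD4, the coreceptor of helper and regulatory T cells, was at 0 to 6.98 CPM in HGA (median 0.5), at 0 to 12.6 CPM in primary AGASAC (median 2.01), and at 1.95, 3.45, 2.25 and 0.639 CPM in the metastases, so all 3 groups overlapped. CD8A, the alpha chain of the coreceptor of cytotoxic T cells, was at 0 in 6 of 10 HGA but at 37.1 CPM in HGA 2 and 16.5 CPM in HGA 3. CD3E was at 1.36 CPM in HGA 2 and at 0 in HGA 3, both below the highest HGA value of CD3E. HGA 2 was, however, the highest HGA for CD8B (9.94 CPM) and held 6.33 CPM of CD247 and 11.8 CPM of GZMK, each second to HGA 8, and HGA 3 had 3.42 CPM of CD3D. In primary AGASAC CD8A was at 0 to 8.74 CPM (median 0.979), and in metastases 1 to 4 at 4.87, 5.04, 6.11 and 7.67 CPM, above the primary tumor of each of the 4 dogs.

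CD8B, the beta chain of the same coreceptor, was 1 of the 2 members called between HGA and primary AGASAC, and its call was lost without either of 2 tumors. It was at 0 to 9.94 CPM in HGA (median 4.61), at 2.1 to 592 CPM in primary AGASAC (median 5.51), and at 6.16, 7.96, 7.72 and 6.39 CPM in the metastases. AGASAC 10 reached 592 CPM and AGASAC 8 reached 51.3 CPM, while CD8A was at 0.979 and 0.670 CPM in these tumors and every other primary AGASAC had 13.1 CPM of CD8B or less. The log2FC of HGA relative to AGASAC was −3.84 ± 1.04 (SE, n = 10 and 11, Benjamini-Yekutieli adjusted p = 0.0411 in edgeR's quasi-likelihood test). Without AGASAC 10 or AGASAC 8, or without any 1 of the 10 HGA, CD8B was no longer called, with the log2FC between −4.07 and −1.27 over all 21 tumors left out in turn. With the RNA extraction batch as a covariate the log2FC was −0.95 ± 0.71, and within the naming series A of the sequencing files it was −0.65 ± 0.79. Within extraction batch 5, without the filter, the direction turned (0.27 ± 1.69). AGASAC 10 was in extraction batch 4, which held no HGA, so that batch gave the covariate fit no contrast of the groups. AGASAC 8 and AGASAC 10 were both in naming series B and outside batch 5, so the other 2 fits left them out. Series A held 9 HGA and 3 primary AGASAC, and series B held 1 and 7. These fits therefore cannot tell batch or series apart from these 2 tumors. By DESeq2 CD8B was not called (log2FC −1.24 ± 0.59).

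IL2RA, SLAMF6 and ICOS had 1, 1 and 5 counts over all HGA. IL2RA, the alpha chain of the interleukin 2 receptor found on activated and regulatory T cells, had a single count over all 10 HGA, in HGA 2 (0.452 CPM). In primary AGASAC it was at 73.5, 59.2 and 40.5 CPM in AGASAC 1, 2 and 10 and at 0 to 9.79 CPM in the other 8. The 611 counts in primary AGASAC against 1 in HGA gave a ratio of 485, with an exact 95% interval of 86.7 to 19180 for counting error only. ICOS, a costimulatory receptor of activated T cells, was at 0 in 8 of 10 HGA with 1.64 CPM in HGA 8, at 0 to 65.6 CPM in primary AGASAC (median 2.68), and at 5.19, 6.37, 6.75 and 6.07 CPM in the metastases. Its highest value was again in AGASAC 10, where CD28 and CTLA4, related receptors encoded beside ICOS, were at 0.653 and 2.61 CPM. SLAMF6, a receptor of the signaling lymphocyte activation molecule family, had 1 count over the 10 HGA and 64 counts over the 11 primary AGASAC, a ratio of 50.8 with an exact interval of 8.80 to 2037.

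In the 4 dogs with both sites, IL2RA differed more between dogs than between sites. Dog 1 had 73.5 CPM in the primary tumor and 65.5 CPM in the metastasis, and dog 2 had 59.2 and 50.4 CPM. Dog 3 had 0.296 and 0.965 CPM, and dog 4 had 1.11 and 1.6 CPM. The primary tumor and the metastasis of a dog were thus both high or both low. FOXP3, the transcription factor of regulatory T cells, which carry much IL2RA, did not share this pattern. It was at 0.603 and 0 CPM in dog 1, 1.31 and 3.18 CPM in dog 2, 0.593 and 1.61 CPM in dog 3, and 0.556 and 0.639 CPM in dog 4. FOXP3 was at 0 to 2.12 CPM in HGA (median 0.533) and at 0.347 to 4.14 CPM in primary AGASAC (median 0.979), with overlapping groups.

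**Figure D3:**
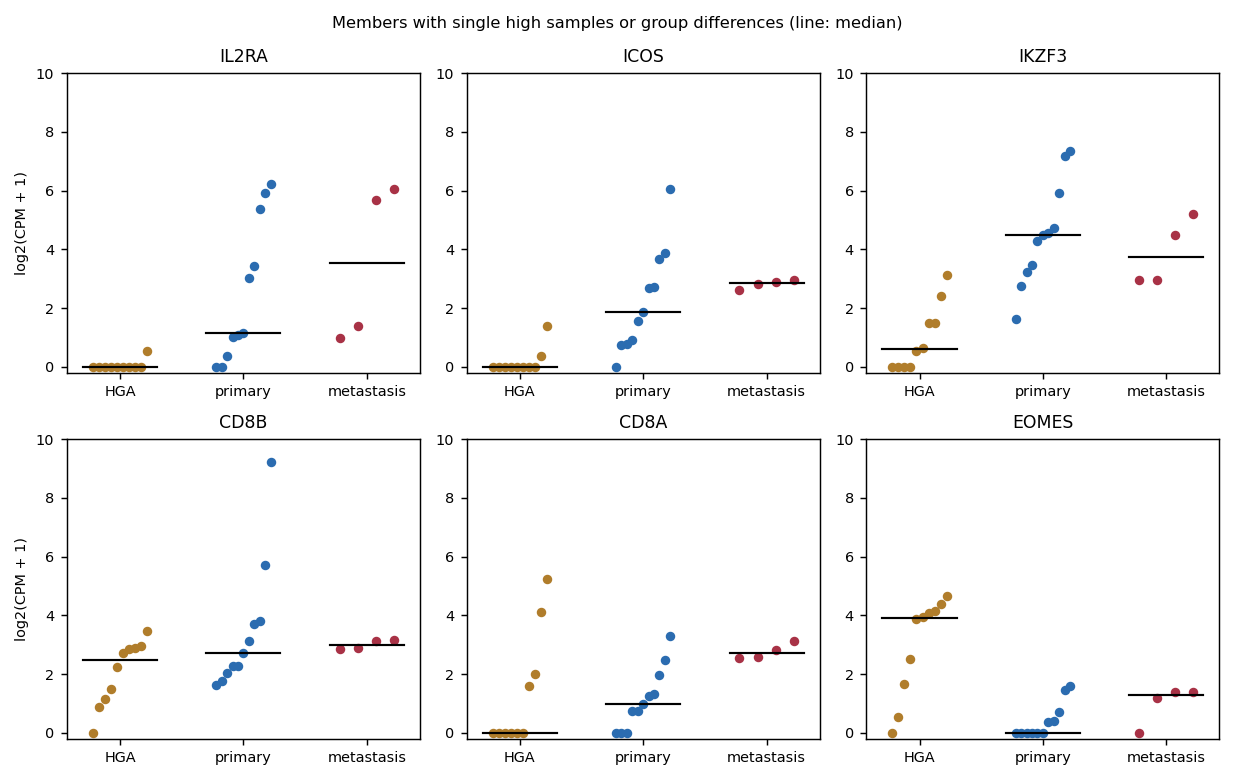
Level of 6 members as log2(CPM + 1) (y axis) in every sample of the 3 groups (points), with the group median as a line. IL2RA and ICOS lie near 0 in HGA, CD8B has its 592 CPM in AGASAC 10 alone, CD8A is high in HGA 2 and HGA 3, and EOMES is the single panel in which most HGA lie above AGASAC.

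The signaling chains of cytokine receptors were less divided. IL7R, the interleukin 7 receptor of resting T cells, was at 0 to 11.1 CPM in HGA (median 1.75), at 0.347 to 14.5 CPM in primary AGASAC (median 3.01), and at 6.81, 9.02, 5.79 and 11.2 CPM in the metastases. All 3 groups overlapped, and HGA 8 was again the highest HGA. IL2RB was at 0 in 8 of 10 HGA and at 0 in 2 of 11 primary AGASAC, with 2.12 to 6.81 CPM in the metastases. IL2RG, shared by several interleukin receptors, had a higher median in HGA (2.2 CPM) than in primary AGASAC (1.63 CPM) and ran from 5.15 to 9.55 CPM in the metastases. The 2 kinases were low, with LCK at 0 to 8.60 CPM in HGA and 0 to 16.8 CPM in primary AGASAC, and ZAP70 at 0 to 1.99 and 0 to 6.55 CPM.

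EOMES was the one member called higher in HGA, in the fit without a filter on low counts. It encodes eomesodermin, a transcription factor of effector T cells and NK cells. It was at 0 to 24.6 CPM in HGA (median 14.1), at 0 to 2.01 CPM in primary AGASAC (median 0), and at 1.62, 0, 1.61 and 1.28 CPM in the metastases. In 8 of 10 HGA the level stood above every AGASAC sample, the exceptions being HGA 2 (0.452 CPM) and HGA 4 (0 CPM). HGA 6, with 16.7 CPM of EOMES, had 0 CPM of CD3D, CD3E and NKG7. It did have counts of 17 of the 46 members, among them 9 of CD2, 6 of CD247, 4 of GZMA and 3 of CD3G. HGA 7, with the highest EOMES, had the highest HGA values of CD3G (3.04 CPM) and NKG7 (2.13 CPM). TBX21, the related T-bet factor, was at 1.09 CPM or less in every HGA.

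GZMA, NKG7 and PRF1 were at 0 in most HGA, but GZMK was not. GZMK was at 0 to 16.4 CPM in HGA (median 1.40), with counts in 6 of 10 and its highest values in HGA 8 and HGA 2, at 0 to 23.8 CPM in primary AGASAC (median 3.06), and at 7.43 to 12.6 CPM in the metastases. GZMA, a granzyme of cytotoxic granules, was at 0 in 7 of 10 HGA (highest 3.07 CPM), at 0 to 12.2 CPM in primary AGASAC (median 3.6), and at 3.24, 2.65, 9.97 and 4.79 CPM in the metastases. NKG7, a granule membrane protein, was at 0 in 8 of 10 HGA (highest 2.13 CPM), at 0 to 14.1 CPM in primary AGASAC (median 0.904), and at 3.89, 1.59, 3.54 and 1.28 CPM in the metastases. GZMA and NKG7 overlapped between all groups. PRF1, which encodes the pore-forming perforin, had 6 counts over all HGA, 6 over all primary AGASAC and 4 over the metastases, so no difference was detectable at this depth. KLRB1, SLAMF1, VPREB3 and BLK were likewise at 11 counts or less in each group, and SLAMF1 had 0 counts in HGA against 7 in primary AGASAC, at least 1.85-fold higher by the limit of 3 counts over the group. KLRD1, the CD94 receptor chain of NK cells, was at 1.27 CPM or less in HGA and at 5.51, 3.71, 3.54 and 1.92 CPM in the metastases, above every HGA.

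MS4A1, CD79A and CD79B had their highest HGA value in HGA 8, PAX5 in HGA 10 and BLK in HGA 5. CD79A, a signaling chain of the B cell receptor, was at 0 to 18.5 CPM in HGA (median 0.511), at 0.243 to 9.44 CPM in primary AGASAC (median 3.47), and at 6.49, 3.18, 6.11 and 3.83 CPM in the metastases. CD79B, its partner, was at 0 in 8 of 10 HGA with 5.34 CPM in HGA 8, at 0 to 4.82 CPM in primary AGASAC (median 0.653), and at 6.49, 1.59, 3.54 and 2.24 CPM in the metastases. Without HGA 8 the highest HGA value of CD79B was 0.607 CPM, below all 4 metastases. MS4A1 was at 0 to 12.4 CPM in primary AGASAC (median 1.01) and at 4.87, 3.45, 3.54 and 4.79 CPM in the metastases. PAX5, the transcription factor that fixes B cell identity, was at 0 in 7 of 10 HGA with 4.73 CPM in HGA 10, at 0 in 6 of 11 primary AGASAC (highest 1.72 CPM), and at 4.22, 2.39, 2.25 and 0.958 CPM in the metastases. TNFRSF13C encodes the receptor for the B cell survival factor BAFF. AGASAC 11 had 20.6 CPM of it with 0 CPM of MS4A1 and 0.243 CPM of CD79A, but with 11 counts of CD22.

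Among the genes shared by lymphocytes or leukocytes, IKZF3 differed most. IKZF3 encodes Aiolos, a zinc finger factor of lymphocytes, and was at 0 to 7.80 CPM in HGA (median 0.511), at 2.08 to 162 CPM in primary AGASAC (median 21.4), and at 6.81, 36.4, 21.6 and 6.71 CPM in the metastases. AGASAC 7, 10 and 11 were highest, with 162, 143 and 59.8 CPM. In AGASAC 11 the levels of CD3E, CD79A and PTPRC were 0.972, 0.243 and 13.8 CPM, which were the lowest of the primary tumors. Other lymphocyte genes were present there, with 17 counts each of CD3G, CD5 and CD2 and 11 of CD22. AGASAC 11 had counts of 30 of the 46 members, the fewest of the primary tumors. PTPRC, the leukocyte antigen CD45, was at 2.12 to 55.0 CPM in HGA (median 14.2), at 13.8 to 89.2 CPM in primary AGASAC (median 25.2), and at 37.3, 47.8, 49.8 and 48.6 CPM in the metastases. CORO1A, an actin regulator of leukocytes, was at 1.62 to 27.5 CPM in HGA (median 6.53), at 7.29 to 45.8 CPM in primary AGASAC (median 19.6), and at 31.5, 30.8, 36.3 and 35.8 CPM in the metastases, above every HGA.

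The remaining T cell surface receptors and the other members were lowest in HGA by their median in most cases and overlapped between HGA and primary AGASAC in every case. CD247, the zeta chain of the receptor complex, was at 0 to 10.3 CPM in HGA (median 0.738), at 0.486 to 15.4 CPM in primary AGASAC (median 6.70), and at 14.0, 4.78, 7.08 and 6.71 CPM in the metastases. CD2, an adhesion receptor, had medians of 2.42, 8.74 and 7.10 CPM in the 3 groups, and CD5, a receptor that dampens the signal, had 0.885, 4.13 and 5.77 CPM. The costimulatory receptors CD27 and CD28 had HGA medians of 0.226 and 0.632 CPM and metastasis medians of 3.20 and 4.84 CPM, and CD6 and CD7 stayed at 7.93 CPM or less in every sample. In the B cell class the receptor CD22 had medians of 0, 2.58 and 4.52 CPM, the coactivator POU2AF1 had 3 counts in HGA, all in HGA 8, against 89 in primary AGASAC, and FCRLA had 3, 20 and 11 counts in the 3 groups. RAC2, a GTPase of blood cells, had medians of 5.59, 12.1 and 26.0 CPM, and IKZF1, the Ikaros factor, had 3.96, 3.82 and 7.10 CPM.

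Genes beside the members with few very high samples were also read, since reads up to 2 kilobases past an annotated 3′ end were counted for a gene. These neighbors were chosen after the values were seen, by their order in the RefSeq annotation of another assembly (UU_Cfam_GSD_1.0). GRB7, an adaptor encoded beside IKZF3, was at 0.430 to 24.6 CPM in HGA and at 108 to 439 CPM in primary AGASAC, with its highest value in AGASAC 7, where IKZF3 was also highest. In AGASAC 10 and AGASAC 11, which had 143 and 59.8 CPM of IKZF3, GRB7 was at 226 and 126 CPM, near the middle and the low end of its range. LOC111090401, beside CD8B, was at 40.8 CPM in AGASAC 10 against a median of 47.1 CPM. Other neighbors were high together with a member in some samples but not in others. RBM17, beside IL2RA, was highest in AGASAC 1 (155 CPM) and metastasis 1 (122 CPM), the samples with the highest IL2RA, though not in AGASAC 10 (65.0 CPM). PARD3B, beside ICOS, was at 272 CPM in AGASAC 10, second to AGASAC 9 (304 CPM), where ICOS had 0 counts. In AGASAC 11 it was at 252 CPM, with 3 counts of ICOS. NEK10, near EOMES, had a median of 16.2 CPM in HGA and 4.82 CPM in primary AGASAC. SLC4A7, directly beside EOMES, went the other way, with medians of 28.4 and 70.5 CPM. On the other side of EOMES, LOC102155200 had medians of 359 and 286 CPM and CMC1 of 45.7 and 29.9 CPM. The part of neighboring genes in the levels of IKZF3, CD8B, ICOS, IL2RA and EOMES was not tested.

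The first comparison, HGA versus AGASAC primary tumors, asked which genes separate the benign from the malignant tumor. The filter on low counts left 12070 genes, among them 10 of the 46 members. Of these 10, 2 were called lower in HGA, IKZF3 and CD8B, against 12.5% of the genes tested. IKZF3 passed the filter through primary AGASAC, so this count is no support for a direction. IKZF3 had a log2FC of −4.61 ± 0.85 (SE, n = 10 and 11, Benjamini-Yekutieli adjusted p = 0.000928 in edgeR's quasi-likelihood test) and was called with every tumor left out in turn (−5.29 to −4.15). It was not called within the extraction batches taken alone, with −4.48 ± 1.54 in batch 5, −4.00 ± 0.97 in batch 6 and −3.53 ± 1.6 in batch 8, and with −3.05 ± 1.06 within naming series A. CD247, CD2, TNFRSF13C, PTPRC and CORO1A, each with a log2FC between −1.59 and −1.08, reached an unadjusted p under 0.05 but were not called. LCK, IKZF1 and RAC2 did not reach it. By the same edgeR test 7 of the 10 members had such a p, against 6477 of the 12070 genes. With library size alone the median log2FC of all genes was shifted to −0.33 and 67.2% of the called genes were lower in HGA, against 49.8% with TMM. Without HGA 8, PTPRC and CORO1A were called together with IKZF3, 3 of 10 members tested against 3027 of 12328 genes.

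Without the filter all 46 members entered the test with 24332 genes, and 6 were called, against 16.2% of all genes. Lower in HGA were IL2RA (log2FC −7.83 ± 1.35), ICOS (−5.44 ± 1.1), IKZF3 (−4.65 ± 0.83), SLAMF6 (−4.53 ± 0.97) and CD8B (−3.91 ± 1.01), and higher was EOMES (4.53 ± 0.84). All but CD8B stayed called when any 1 of the 21 tumors was left out, an alternative chosen after seeing the data. The fitted values of IL2RA and SLAMF6, with 1 count in HGA, depend on the prior count of the fit, and the counting ratios are those given above. Within extraction batches 5, 6 and 8 the log2FC of IL2RA was −6.19 ± 2.83, −4.61 ± 1.95 and −10.3 ± 1.89. That of ICOS was −1.84 ± 2.30, −7.41 ± 1.96 and −5.30 ± 1.63, and that of EOMES 5.38 ± 2.13, 3.66 ± 1.11 and 7.19 ± 1.01. Each had the direction seen over all tumors, but only IL2RA and EOMES in batch 8 and ICOS in batch 6 were called. IL2RA had 0 counts in the HGA of batches 5 and 8, and ICOS in those of batch 6. EOMES had 1 count or less in each primary AGASAC of batches 5 and 8. These fitted values also depend on the prior count. The median log2FC of the 46 members was −1.35, or −1.30 with SLAMF1 at its bound, against −0.11 for all 24332 genes.

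**Figure D4:**
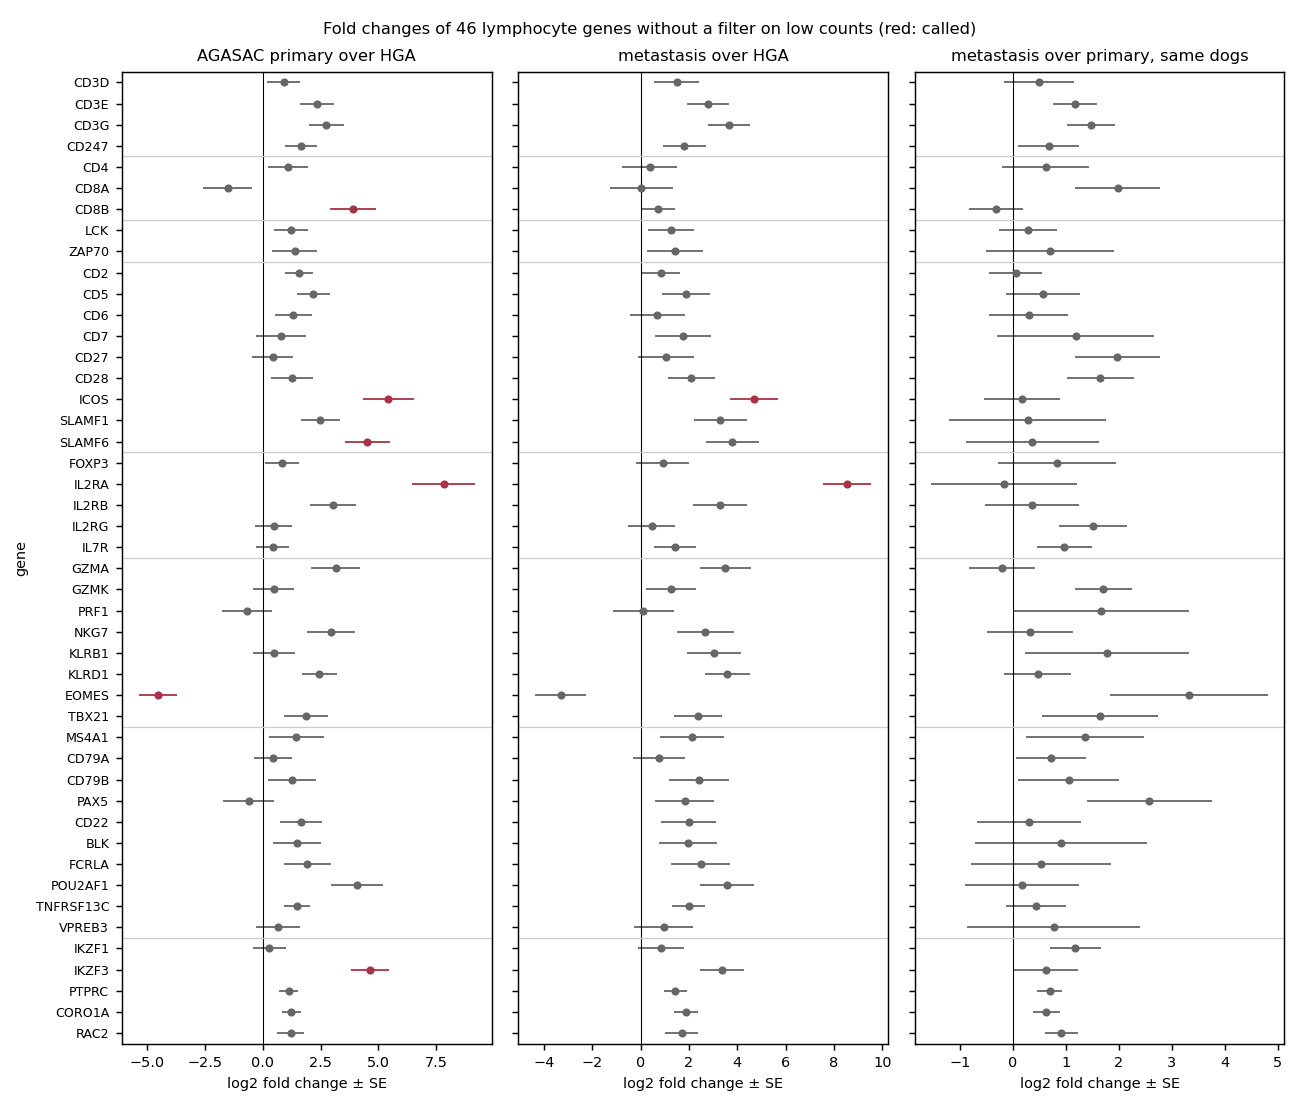
Log2 fold change of the 46 members (x axis) with its standard error for AGASAC primary over HGA (left, sign reversed from the text), metastasis over HGA (middle) and metastasis over the primary tumor of the same dogs (right), without a filter on low counts. Called members are red: 6 on the left with EOMES as the single called gene below 0, IL2RA and ICOS in the middle, and 0 on the right.

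The second comparison set the 4 metastases against the primary tumors of the same 4 dogs, and so asked what differed at the lymph node site. Of 26 members tested, 0 were called, and 0 of the 12629 genes were (0.0%). By edgeR's quasi-likelihood test 9 of the 26 members had an unadjusted p under 0.05, against 1.15% of all genes. This fit did not model the pairing by dog. With the dog as a block the number was 10 of 26, against 491 of 12629 genes. Some of the 26 passed the filter through the metastases, so these counts are no support for a direction. Without a filter and without the block it was 12 of 46, against 1.73% of 22156 genes, and by DESeq2 0 members were called and 12 had such a p. By edgeR the adjusted p of all 26 was 1.

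None of the 9 was among the 4 B cell genes tested (MS4A1, CD79A, CD22 and TNFRSF13C), and the classes were not compared by a test. CD3G had a log2FC of 1.47 ± 0.42 (SE, n = 4 and 4), with primary and metastasis values of 2.41 and 12.6 CPM in dog 1, 2.94 and 10.4 in dog 2, 3.86 and 11.9 in dog 3, and 7.78 and 13.1 in dog 4. CD3E had 1.18 ± 0.36, with 4.22 and 7.79 CPM in dog 1, 3.6 and 10.4 in dog 2, 4.45 and 14.2 in dog 3, and 6.95 and 11.5 in dog 4. GZMK, a granzyme of memory T cells, had 1.70 ± 0.47, with 3.62 and 12.6 CPM in dog 1, 3.27 and 7.43 in dog 2, 0.890 and 7.72 in dog 3, and 3.06 and 7.99 in dog 4. In each of these 3 genes every metastasis lay above every primary tumor of the 4 dogs. CD8A (1.98 ± 0.72), IL2RG (1.5 ± 0.59), IKZF1 (1.17 ± 0.39), RAC2 (0.92 ± 0.29), PTPRC (0.69 ± 0.22) and CORO1A (0.63 ± 0.24) were the other 6.

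The metastasis lay above the primary tumor in all 4 dogs for 14 of the 46 members, against 5.05% of 22156 genes. These were CD3E, CD3G, CD8A, CD27, CD28, IL2RG, IL7R, GZMK, CD79B, PAX5, IKZF1, PTPRC, CORO1A and RAC2. Every metastasis value exceeded every primary value of these dogs in 8 members (CD3E, CD3G, CD8A, CD28, GZMK, IKZF1, CORO1A and RAC2), against 0.654% of the genes. GZMA went the other way in 3 of 4 dogs (3.62 and 3.24 CPM in dog 1, 3.6 and 2.65 in dog 2, 12.2 and 4.79 in dog 4, but 4.15 and 9.97 in dog 3), with a log2FC of −0.21 ± 0.60. Against all 11 primary tumors, 1 of 31 members tested had an unadjusted p under 0.05. The markers of lymph node stroma summed to a median of 12.4 CPM in the metastases and 5.74 CPM in the primary tumors of the same dogs, against 44.4 CPM in HGA. CCL21 was at 0.649 to 5.11 CPM in the metastases and 0.301 to 7.52 CPM in these primary tumors, MADCAM1 was at 0.320 CPM or less, and TNFSF11 reached 16.9 CPM in metastasis 4 and 11.4 CPM in AGASAC 4. CCL19 ran from 2.27 to 8.36 CPM in the metastases and from 0.654 to 1.67 CPM in the primary tumors of the same dogs, and CXCL13 from 0.324 to 2.88 CPM and from 0 to 1.81 CPM. Neutrophil markers summed to 15.3 to 55.6 CPM in the metastases against 5.56 to 15.4 CPM in the primary tumors of the same dogs, and the part of the stroma and neutrophil markers in the lymphocyte genes was not tested.

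**Figure D5:**
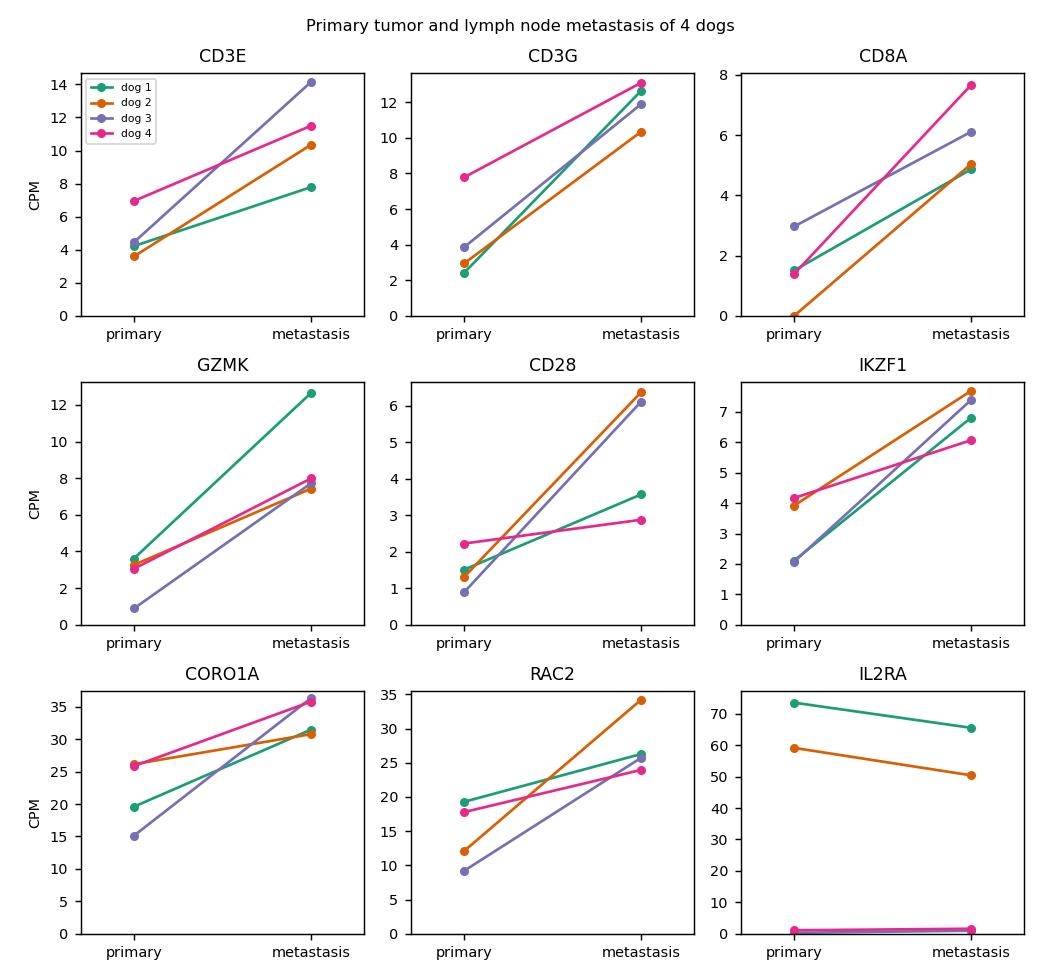
CPM (y axis) of 9 members in the primary tumor and the lymph node metastasis of 4 dogs, joined by a line for each dog. The metastasis ends of the lines for CD3E, CD3G, CD8A, GZMK, CD28, IKZF1, CORO1A and RAC2 lie above the primary ends in all 4 dogs, whereas IL2RA stays high in dogs 1 and 2 and near 0 in dogs 3 and 4.

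The third comparison, metastases versus HGA, shares its HGA with the first and its metastases with the second, and the first and second share AGASAC 1 to 4. Of 24 members tested, 2 were called higher in the metastases, against 7.69% of the 13195 genes. They were ICOS (log2FC 4.71 ± 0.87, SE, n = 4 and 10, Benjamini-Yekutieli adjusted p = 0.00609 in edgeR's quasi-likelihood test) and CD3G (3.62 ± 0.84, adjusted p = 0.0343 in the same edgeR test). Both passed the filter through the metastases, so this count is no support for a direction. ICOS stayed called when any 1 of the 14 samples was left out (4.48 to 6.24), and CD3G in 6 of the 14 (3.43 to 4.09), being lost without any metastasis and without HGA 2, 3, 5 or 6. Without HGA 8, 6 of 21 members tested were called (CD3G, ICOS, MS4A1, IKZF3, PTPRC and CORO1A), against 2006 of 13255 genes. Within extraction batch 5 alone 0 of 26 members were called, as were 0 of all 13079 genes. Within batch 8 alone it was 0 of 27 members and 0 of 13149 genes. With library size alone 36.3% of the called genes were lower in the metastases, against 52.2% with TMM. Without the filter, IL2RA (8.53 ± 1.00) and ICOS (4.70 ± 1.00) were called of 46 members, against 9.39% of 23678 genes. CD3G was not called without the filter (adjusted p = 0.0536 in edgeR's quasi-likelihood test). The 400 counts of IL2RA in the metastases against 1 in HGA gave a ratio of 864 with an exact interval of 154 to 34220. In the fit without the filter ICOS was lost without any 1 of the 4 metastases, while IL2RA stayed called with any sample left out.

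Every metastasis value exceeded every HGA value in 6 members (CD3E, CD3G, ICOS, IL2RA, KLRD1 and CORO1A), against 5.8% of the genes with a count. In 0 members did every primary AGASAC exceed every HGA, against 2.59% of the genes. EOMES had a log2FC of −3.31 ± 1.08 in the metastases relative to HGA and was not called. The median log2FC of the 46 members without the filter was 1.85, or 1.83 with SLAMF1 at its bound, against −0.04 for all genes.

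Other genes of the same pathways were taken from lists of T cell receptor signaling, T cell identity and B cells. In HGA versus AGASAC, where 25.1% of all genes tested were called in either direction, 3 of 7 tested signaling genes were called, the exchange factor VAV1 (2.2 ± 0.43) and the paracaspase MALT1 (1.09 ± 0.26) higher in HGA and the adaptor LCP2 (−1.77 ± 0.47) lower. Of 17 T cell identity and activation genes 2 were tested and TCF7 was called higher in HGA (1.84 ± 0.49). Of 8 tested B cell genes LYN (−1.93 ± 0.35) and CIITA (−2.27 ± 0.61), the kinase and the activator of MHC class II, were called lower in HGA. In the second comparison 0 of 7, 0 of 5 and 0 of 10 genes of the 3 lists were called, and by edgeR's quasi-likelihood test 0, 0 and 1 had an unadjusted p under 0.05. In metastases versus HGA 0 of 7, 2 of 5 and 1 of 10 were called, against 16.1% of all genes. PDCD1, the inhibitory receptor PD-1, was called higher in the metastases, with 3.98 to 9.97 CPM against 0 to 0.543 CPM in HGA, and BCL11B, a T cell factor, was called lower, with 0 CPM in all 4 metastases against 1.72 to 15.4 CPM in HGA. LYN was higher (2.81 ± 0.46).

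The marker lists gave the following background. Of the macrophage markers 1 of 8 tested was called in HGA versus AGASAC (C1QB, −1.26 ± 0.29) and 0 of 8 in the other comparisons, with summed medians of 196 CPM in HGA, 331 in primary AGASAC and 224 in the metastases. Plasma cell markers had 0 of 1, 0 of 2 and 0 of 1 called, with summed medians of 26.4, 71.7 and 87.9 CPM. Among lymph node stroma markers 1 of 1, 0 of 1 and 1 of 2 were called in the 3 comparisons, as CCL21 was called higher in HGA against primary AGASAC (4.28 ± 0.59) and lower in the metastases against HGA (−4.02 ± 0.82). Neutrophil markers had 0 called in each comparison, and epithelium markers had 6 of 7 called in both comparisons with HGA and 0 of 5 between metastases and primary tumors.

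Of 12 relations of CD3E with other members, on the log2(CPM + 1) scale, 10 could be computed, as IL2RA and MS4A1 each had counts in a single HGA. CD3E and CD4 had a Pearson r of 0.864 over the 11 primary AGASAC (permutation p = 0.00229, adjusted 0.0229) and a Spearman rho of 0.427 (permutation p = 0.193, adjusted 0.322). Without AGASAC 6 and AGASAC 7, the 2 tumors farthest from the median of CD3E, r was 0.441, so the relation rested on those tumors. The other 9 relations had an adjusted permutation p of 0.101 or more by either measure. Among them, CD3E and CD8A in primary AGASAC had r = 0.599 (permutation p = 0.0503, adjusted 0.101) and rho = 0.661 (permutation p = 0.0321, adjusted 0.138), with r = 0.619 without the 2 farthest tumors. CD3E and NKG7 there had r = 0.541 (permutation p = 0.0829, adjusted 0.138) and rho = 0.656 (permutation p = 0.0326, adjusted 0.138), with r = 0.552 without these tumors. With FOXP3 r was 0.63 (permutation p = 0.0416, adjusted 0.101), and with MS4A1 0.645 (permutation p = 0.0327, adjusted 0.101). These fell to 0.345 and 0.311 without the same tumors. In HGA, CD3E and CD4 had r = 0.672 (permutation p = 0.0319, adjusted 0.101), and 0.454 without the 2 farthest HGA. For CD3E and IL2RA in primary AGASAC r was 0.0793 (permutation p = 0.824) and rho −0.150 (permutation p = 0.656), with r at −0.124 without the 2 farthest tumors.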

How the data were processed

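QuantSeq 3′ libraries of 25 canine FFPE samples (10 HGA, 11 primary AGASAC, 4 metastases) were analysed from the deposited raw counts per gene. The authors trimmed reads with Cutadapt, aligned them to CanFam3.1 with STAR and counted them with featureCounts in 2 rounds, the second extending annotations by 2 kilobases at the 3′ end, with multi-mapped reads split evenly, so a gene can take reads of a close neighbor or paralog. Tool versions and the strand setting of the counting are not given in the sources used here. The table also holds 25 columns of counts normalized by the authors and 5 columns of their comparison (mean, log2FC, its error, p and adjusted p), which were not used, and 0 columns of other samples.

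Samples were grouped by their labels, and no duplicates were found. Replicates are tumors as labelled, and p-values measure the spread between these samples. Tests used edgeR 4.0.16 under R 4.3.3: filterByExpr (minimum count 10, total 15), TMM, and the quasi-likelihood test over all genes, with Benjamini-Yekutieli adjustment. A call needed an adjusted p no greater than 0.05 and an absolute log2FC of 1 or more. SE is the log2FC over the root of the F statistic. CPM used TMM factors over all 25 samples. Counts on genes were 1562347 to 6389555 per sample. Ratios with 1 to 3 counts in a group have exact (Clopper-Pearson) 95% intervals for counting error, and the limit of 0 was 3 counts over the group. Correlations used 100000 permutations, two-sided, with Benjamini-Hochberg adjustment. Alternatives were DESeq2 1.42.0, other scalings, filters, covariates and sample sets. A metastasis and a primary tumor with the same number are from the same dog by the labels, and their deviations from group means correlated at 0.422 to 0.714. On simulated counts edgeR called 143 of 200 genes changed by a log2FC of 2 and 193 of 197 changed by 4 in HGA versus AGASAC (24332 genes simulated). It called 0 of 199 and 177 of 197 in metastases versus primary tumors (22156 genes), and 69 of 200 and 184 of 200 in metastases versus HGA (23678 genes). The changed genes were drawn only from genes with higher expected counts, and no pairing by dog was simulated. These numbers therefore do not describe members with few counts.

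The members, the pathway and marker lists and the tests were chosen with earlier results of these data known. Values by sample are given for 17 anchor genes of the classes, of which GZMB was not found, and for members called, with the rest by range and counts. Values by sample of CD247, GZMK, KLRD1 and TNFRSF13C were added after their values were seen. RNA extraction batches and the naming series of the sequencing files are as the supplementary tables of the study give them, and 1 primary tumor has no series there. No sequences or coordinates are given, because the annotation used here belongs to another dog assembly.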

Additional observations from a re-analysis of the deposited data

Results flagged for a closer look

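In 21 lymphocyte genes the highest and the lowest sample of HGA and of the metastases were compared with the rest of their group by Dixon's ratio of gap to range, and 15 of 42 pairs of gene and group held a sample that stood apart. Chance gives about 1 in 20 groups for continuous values, a rate that does not hold for groups with many values of 0, where a single count can stand apart. HGA 8 stood apart in 8 genes, with 6.16 CPM of CD3E (next HGA 3.04), 10.3 of CD3D (3.82), 9.04 of MS4A1 (0), 18.5 of CD79A (6.15), 5.34 of CD79B (0.607), 55.0 of PTPRC (21.9), 27.5 of CORO1A (14.9) and 1.64 of ICOS (0.304). HGA 2 stood apart with 37.1 CPM of CD8A (next HGA 16.5) and, on a single count, 0.452 CPM of IL2RA. HGA 4 had 3.07 CPM of GZMA and 1.84 CPM of PRF1, the granzyme and perforin of cytotoxic granules, against 0.816 and 0.849 CPM in the next HGA. HGA 10 had 4.73 CPM of PAX5, with 1.08 CPM in the next HGA. Among the metastases, metastasis 1 had 1.3 CPM of PRF1 with 0 in the other 3, and its 37.3 CPM of PTPRC lay below the 47.8 CPM of the next.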

How the results depend on the processing

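Of 10 members tested, 2 were called in HGA versus AGASAC, against 3032 of all 12070 genes. The number was 6 of 10 with Benjamini-Hochberg adjustment (3725 of 12070 genes) and 10 of 46 with DESeq2 (4508 of 24332). DESeq2 called CD3E, CD3G, CD5, ICOS, SLAMF6, IL2RA, KLRD1, POU2AF1 and IKZF3 lower in HGA and EOMES higher. It did not call CD8B (−1.24 ± 0.59). The number called was 6 of 46 without the filter (3951 of 24332) and 1 of 4 with a minimum count of 20 (2681 of 10425). It was 4 of 18 with all 15 AGASAC samples (3496 of 12764) and 1 of 10 with the extraction batch as a covariate (3003 of 12070). Within extraction batches 5, 6 and 8 it was 0 of 18, 0 of 21 and 0 of 22 (262 of 12356, 637 of 13159 and 338 of 13758 genes). It was 0 of 14 within naming series A (2157 of 13433 genes) and 1 to 3 with each sample left out. In metastases versus HGA 2 of 24 members were called, against 2124 of 13195 genes. The number was 9 of 24 by Benjamini-Hochberg adjustment (3536 of 13195 genes) and 7 of 46 by DESeq2 (3211 of 23466). It was 1 of 8 with a minimum count of 20 (2039 of 11514) and 1 to 6 with each sample left out. Within extraction batch 5 or 8 it was 0 of 26 and 0 of 27, with 0 of 13079 and 0 of 13149 genes called. DESeq2 called CD3G, ICOS, IL2RA, KLRD1, MS4A1 and CORO1A higher in the metastases and EOMES lower. Between metastases and primary tumors 0 were called with any sample left out, and 9 members had an unadjusted p under 0.05, with 1 against all 11 primary tumors, 2 within extraction batch 8, and 8 to 13 with each sample left out. The fit with the dog as a replicate block gave 10 of 26, against 491 of 12629 genes, and changed no call of a member. Alternatives chosen after seeing the data, the leave-outs and batches without the filter, turned the direction of CD8B within extraction batch 5 (0.27), and a planned one turned the correlation of CD3E with IL2RA without the 2 farthest tumors (−0.124). The causes of these changes were not tested. On simulated counts with a log2FC of 2, metastases versus primary tumors, edgeR called 0 of 199 genes, edgeR without the filter 19 of 200 and DESeq2 126 of 200, so the number of calls there depended on the method. Unchanged genes called there were 0, 1 and 17, in the same order. Members with few counts in a group are limited by depth.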
